A study of Mus musculus with 6 samples.

Results

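Clusters of resting p300 peaks are stretches of the macrophage genome in which several p300 peaks of untreated cells lie close together. The authors' p300 peaks of untreated cells on chromosomes 1 to 19 and X were joined wherever the gap to the next peak was at most 12500 bp, and joined regions with at least 3 peaks were kept. This gave 545 clusters among 9639 regions (5.65%), and they held 2064 of 12421 peaks (16.6%). The remaining regions held 1 peak (7831 single peaks) or 2 peaks (1263 pairs). Members were thus chosen by the p300 reads of untreated cells, and the p300 level, the spacing and the number of peaks in untreated cells are given as description only.

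The study mapped candidate enhancers by chromatin immunoprecipitation and sequencing in macrophages grown for 7 days from bone marrow of female Fvb mice in medium conditioned by L929 cells, a source of macrophage colony-stimulating factor. Cells were left without treatment or were given lipopolysaccharide (LPS, a glycolipid of the outer membrane of Gram-negative bacteria) at 10 ng/ml for 2 h. p300 was measured in 2 biological replicates per condition, PU.1 in 1 library per condition, and H3K4me1 and input DNA in 1 library each from untreated cells. The labels do not say how many mice were pooled or whether replicates came from separate mice, so p-values refer only to these libraries. They rest on a variance that the fit shares between regions, not on the replicate spread of each region.

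p300 is a histone acetyltransferase and transcriptional co-activator that does not read DNA sequence itself and is brought to enhancers by transcription factors. PU.1 is an ETS-family transcription factor that opens and marks enhancers in myeloid cells, and H3K4me1, histone H3 with a single methyl group on lysine 4, spreads over the nucleosomes of poised and active enhancers. Enhancers that lie close together are often joined and counted as a single large region, because several elements may serve the same gene.

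Sequencing depth lay between 5744811 and 7828655 reads per library. Enrichment was weaker in both replicate 1 libraries of p300. Resting p300 peaks took 1.44% (untreated replicate 1), 6.20% (untreated replicate 2), 1.68% (LPS replicate 1) and 4.04% (LPS replicate 2) of distinct p300 reads, and 0.871% of input. Of the reads that fell in resting peaks, the clusters took 25.8% and 29.4% in untreated replicates 1 and 2, 29.5% and 30.5% in LPS replicates 1 and 2, and 30.3% in input. The input share was thus as high as the p300 shares.

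Most clusters were small. There were 322 clusters of 3 peaks (59.1%), 116 of 4, 62 of 5, 28 of 6 and 9 of 7, and 8 clusters with more peaks. Cluster width had a median of 13984 bp (quartiles 9427 and 19144, range 2182 to 71182). Gaps between neighbouring peaks had a median of 3589 bp, and peaks filled a median of 19.2% of a cluster. At the edge of the rule, the widest gap inside a cluster was 12500 bp and the narrowest gap to an outside peak was 12582 bp. There were 58 gaps within 500 bp inside the limit and 56 within 500 bp outside it. Regions of 3 peaks, just inside the rule, held a median of 136.5 untreated p300 reads with a peak score of 99.5, and regions of 2 peaks, just outside it, held 73 reads with a score of 82.8. The score is the authors' value per peak. Cluster peaks were wider than single peaks (median 676 against 411 bp) and had higher scores (median 110.7 against 64.7).

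Clusters were uneven inside. The strongest peak held a median of 44.7% of a cluster's untreated p300 reads over peaks (range 9.87% to 88.6%). The same peak held the most LPS p300 reads in 381 of 545 clusters (69.9%), the most untreated PU.1 reads in 308 (56.5%), the most H3K4me1 reads in 262 (48.1%) and the most input reads in 344 (63.1%). A peak drawn evenly from each cluster would be the same one in 28.5%. Peaks were ranked by reads and not by reads per kb, and the even draw takes no account of peak width. The part of width was not tested. Input picked the same peak more often than PU.1 or H3K4me1 did.

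The cluster with the most peaks stood apart from the others. It lay at chr11:3028279-3099460 (mouse build mm9, as are all positions here), held 27 peaks in 71182 bp and had 37.4 input reads per kb of peaks. Its peaks held 4213 and 3197 p300 reads in untreated replicates 1 and 2, 3403 and 3498 in LPS replicates 1 and 2, 1289 and 1438 PU.1 reads (untreated and LPS), 1512 H3K4me1 reads and 1840 input reads. Only 5 of its 27 peaks overlapped a PU.1 peak and 4 an H3K4me1 peak. Over the whole region its H3K4me1 was below input, with a log2 ratio of -0.43. Clusters at chr7:38960623-38975947, chr11:53953458-53970407 and chr13:120278281-120283474 also had over 20 input reads per kb of peaks (22.2 to 28.4), whereas no other cluster exceeded 16.0. Without these 4 clusters the clusters' share of peak reads was 21.7% and 28.7% in untreated replicates 1 and 2, 26.4% and 29.1% in LPS replicates 1 and 2, and 27.2% in input.

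The other large clusters carried all 3 signals, although untreated p300 stood near input in replicate 1. The cluster of 12 peaks at chr9:65382753-65428698 held 130 and 821 untreated and 172 and 567 LPS p300 reads over its peaks, 1354 and 1369 PU.1 reads, 635 H3K4me1 reads and 100 input reads. A single peak of 1849 bp held 42.7% of its untreated p300 reads, and 7 of the 12 peaks overlapped an untreated PU.1 peak and 11 an H3K4me1 peak. Its untreated p300 had log2 ratios to input over peaks of 0.29 and 3.06 in replicates 1 and 2. The cluster of 10 peaks at chr11:81810600-81861971 held 139 and 1030 untreated and 230 and 773 LPS p300 reads, and 1109 PU.1 reads in untreated and 1308 in LPS cells. It had 139 input reads over its peaks, and its untreated p300 had log2 ratios to input of -0.086 and 2.91. Each of its 10 peaks overlapped an untreated PU.1 peak and 9 an LPS p300 peak, and 4 further p300 peaks were called inside it after LPS. The other cluster of 10 peaks, at chr6:113594682-113627855, was covered by H3K4me1 peaks over 76.1% of its length, against a median of 50.8% for all clusters.

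**Figure D1:**
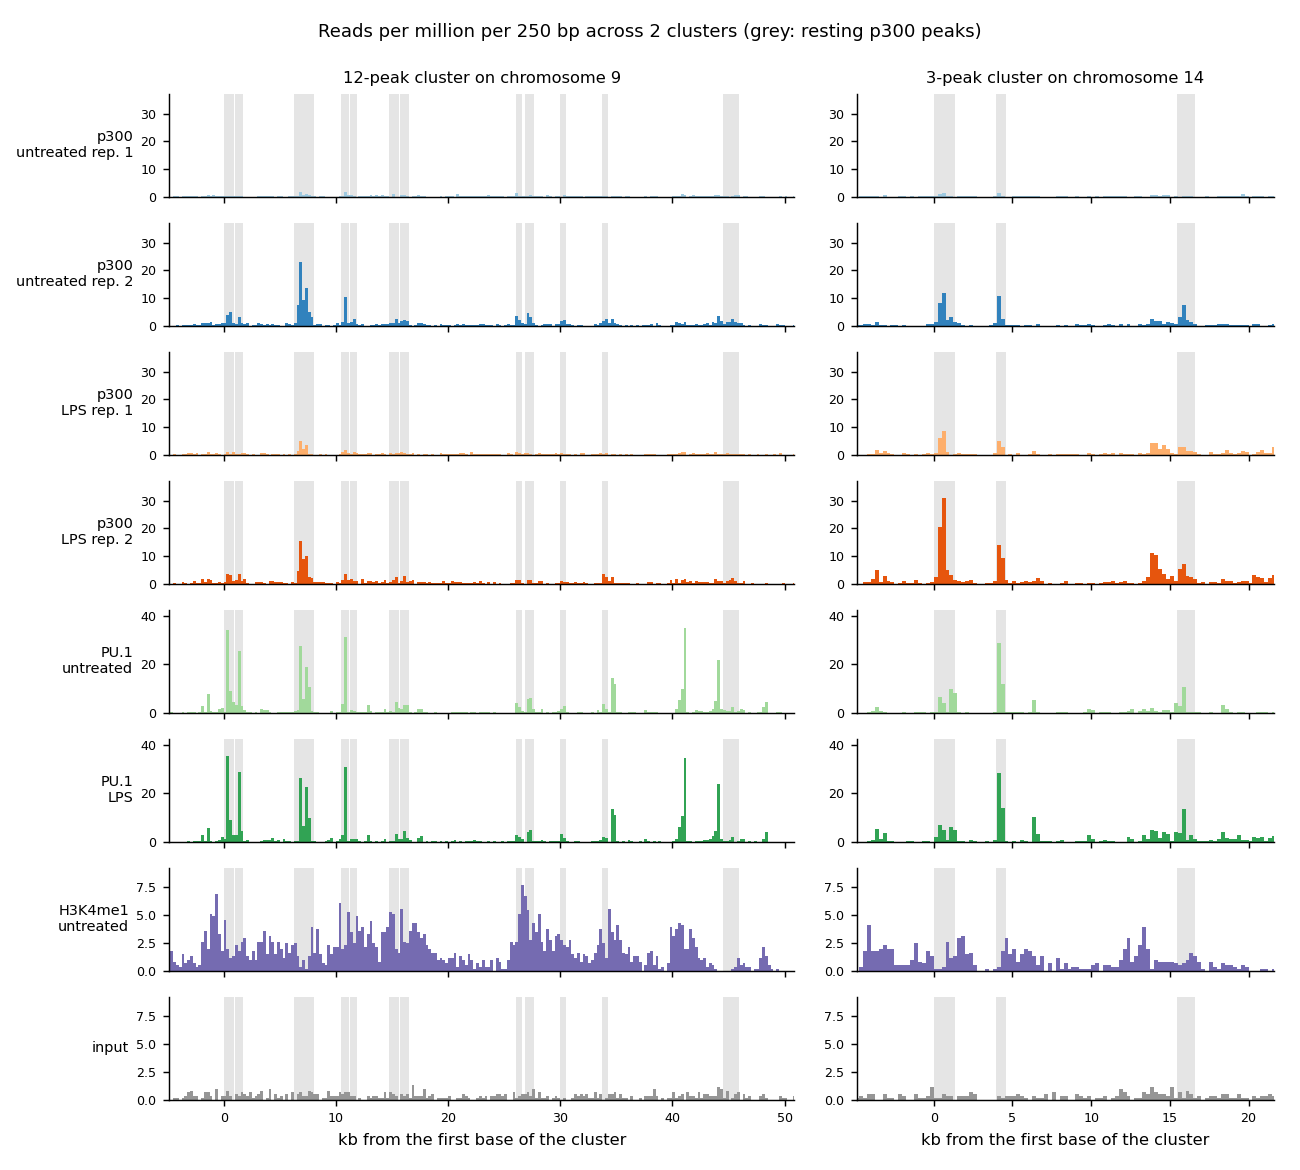
RPM (distinct reads scaled to equal depth) in 250 bp bins for each of the 8 libraries (rows) across the 12-peak cluster on chromosome 9 (left) and the 3-peak cluster on chromosome 14 (right), against distance in kb from the first base of the cluster, with resting p300 peaks in grey. The vertical scale is shared by the 4 p300 rows, by the 2 PU.1 rows and by the bottom 2 rows. In the 12-peak cluster H3K4me1 lies over most p300 peaks and parts of the sequence between them, and is low in parts of the widest gaps and over the last p300 peak. PU.1 stands in narrow spikes, some of them between p300 peaks, and p300 is far lower in both replicate 1 libraries.

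PU.1 and H3K4me1 were compared with the clusters because neither entered the rule. PU.1 was called on most cluster peaks. Of 2064 cluster peaks, 1519 overlapped an untreated PU.1 peak by at least 1 bp (73.6%, exact binomial 95% interval 71.6% to 75.5%), against 4071 of 7831 single peaks (52.0%, 50.9% to 53.1%). H3K4me1 peaks overlapped 1706 cluster peaks (82.7%, 81.0% to 84.3%) and 3473 single peaks (44.3%, 43.2% to 45.5%). At least 1 of both marks was found on 91.5% of cluster peaks and 58.3% of single peaks. Peaks of pairs lay closer to cluster peaks than to single peaks. PU.1 was on 70.4% of them (68.6% to 72.2%), H3K4me1 on 71.8% (70.0% to 73.6%) and at least 1 of both on 82.4%. Within clusters, PU.1 was on every peak in 192 clusters and on none in 8, and H3K4me1 was on every peak in 323 and on none in 18. The intervals cover counting error only. Each list came from 1 library and peaks of a cluster share a neighbourhood, so no test was made.

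The difference in the share of peaks with PU.1 was held by weak p300 peaks. All 12421 peaks were ranked by p300 peak score and divided into 4 classes of nearly equal size, with limits at scores of 57.3, 71.2 and 122.6. In class 1, the lowest, PU.1 was on 52.2% of 253 cluster peaks (45.8% to 58.5%) and 27.4% of 2368 single peaks (25.6% to 29.2%). In class 2 the shares were 64.2% (58.7% to 69.3%) and 35.7% (33.7% to 37.7%), and in class 3 they were 72.3% (68.3% to 76.0%) and 74.6% (72.6% to 76.5%). In class 4, the highest, cluster peaks had the lower share, 83.4% of 945 (80.9% to 85.7%) against 91.1% of 1339 (89.5% to 92.6%). Peaks of pairs had PU.1 on 45.4% in class 1 and 90.9% in class 4, and H3K4me1 on 52.2% and 89.4%. H3K4me1 was on more cluster peaks than single peaks in each class, 67.6% against 23.4% in the lowest and 89.2% against 80.9% in the highest. Summed reads relative to input did not always keep the order of the shares. H3K4me1 stood at 5.62-fold in cluster peaks and 3.41-fold in single peaks in class 1, but at 4.23-fold and 4.43-fold in class 4. Untreated PU.1 stood at 11.2-fold and 11.1-fold in class 1, 10.55-fold and 13.45-fold in class 2, and 11.8-fold and 16.1-fold in class 4. These sums include the 4 clusters with high input and were not repeated without them. In class 4, cluster peaks held 41257 H3K4me1 and 9688 input reads. The cluster of 27 peaks alone held 1512 and 1840 over its peaks of all classes. Its part in the order of class 4 was not tested. Cluster peaks were wider than single peaks within each class, with medians of 842 and 684 bp in class 4. Scores were not equal within that class, with medians of 249.2 for cluster peaks and 190.7 for single peaks. The parts of width and of score in the shares were not tested.

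**Figure D2:**
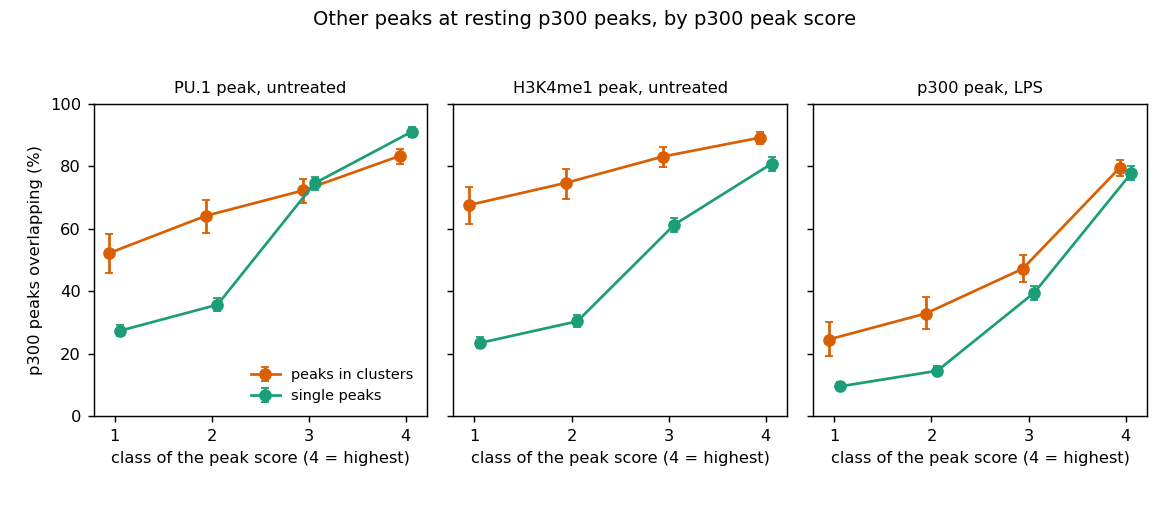
Share of resting p300 peaks (percent) that overlap an untreated PU.1 peak, an untreated H3K4me1 peak or an LPS p300 peak, by class of the p300 peak score (4 is the highest), for peaks in clusters and single peaks. Bars are exact binomial 95% intervals. PU.1 shares cross between class 2 and class 4, from 64.2% against 35.7% to 83.4% against 91.1%, whereas the H3K4me1 share of cluster peaks is above that of single peaks in every class.

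H3K4me1 also filled the sequence between the peaks of a cluster. Its density was 45.0 reads per kb in cluster peaks, 30.7 between them and 16.2 in the 12.5 kb on either side, and density between peaks exceeded that of the flanks in 481 of 545 clusters (88.3%). Relative to input at equal depth these were 4.46-fold, 5.08-fold and 3.20-fold. Without the 4 clusters of high input the peaks stood at 5.02-fold and the sequence between them at 5.14-fold. Summed over clusters, H3K4me1 relative to input was thus about as high between peaks as in them. H3K4me1 peaks covered 46.4% of the sequence between cluster peaks and 23.9% of the flanks, and 9.90% of the flanks of single peaks.

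PU.1 behaved differently and was concentrated on the peaks. Untreated PU.1 had 111.2 reads per kb in cluster peaks, 10.9 between them and 8.09 in the flanks, and LPS PU.1 had 108.3, 10.4 and 7.93. Density between peaks exceeded that of the flanks in 343 clusters (62.9%) for untreated PU.1. Input was not flat either. It had 10.0, 6.00 and 5.01 reads per kb in these zones, or 4.36, 2.61 and 2.18 times the genome-wide mean, and was higher between peaks than in flanks in 420 clusters.

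p300 read density was higher in cluster peaks than in single peaks, while the order relative to input differed between replicates and with the clusters of high input. In untreated replicate 2 it was 67.8 reads per kb in cluster peaks and 43.0 in single peaks, and in replicate 1 it was 15.0 and 12.4. Divided by input, summed cluster peaks stood at 6.93-fold and single peaks at 7.36-fold in untreated replicate 2. Without regions of at least 20 input reads per kb of peaks (4 clusters and 25 single peaks, a limit chosen after seeing the data) they stood at 7.75-fold and 7.43-fold, so the order turned. Medians per region in that library were also higher for clusters, at log2 ratios of 2.83 and 2.45. In untreated replicate 1 cluster peaks were lower, at 1.41-fold against 1.95-fold, and at 1.31-fold against 1.97-fold without those regions. In LPS replicate 2 the values were 4.68-fold and 4.66-fold, and 5.08-fold and 4.70-fold without them. Between peaks, p300 was at 0.769 and 1.17 times input in untreated replicates 1 and 2.

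**Figure D3:**
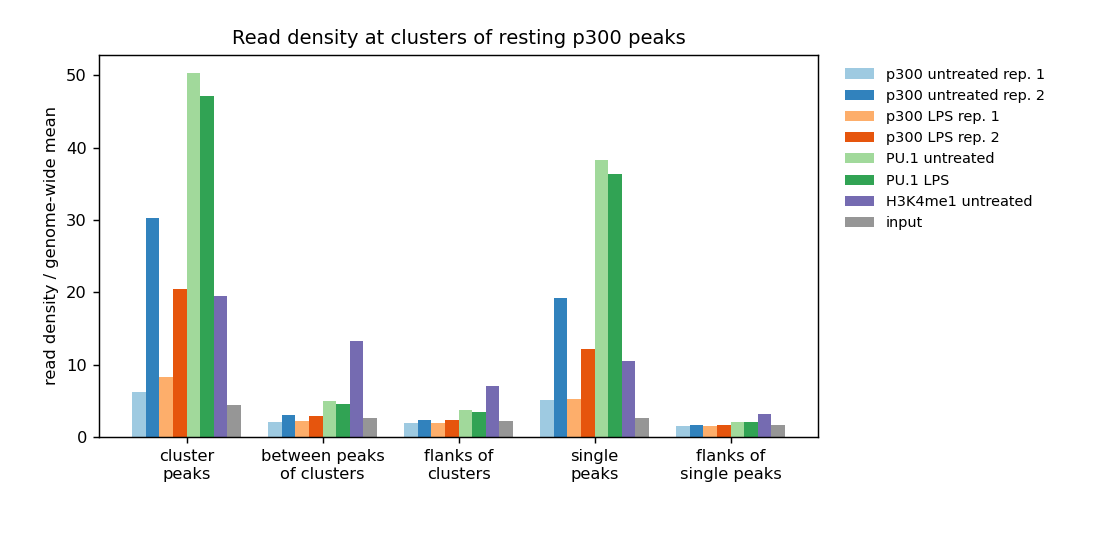
Read density divided by the genome-wide mean of the same library, for the 8 libraries, in cluster peaks, between peaks of clusters, in the 12.5 kb flanks of clusters, in single peaks and in their flanks. Each bar is 1 library, so there are no error bars. H3K4me1 is 13.3 times its genome-wide mean between cluster peaks and 6.99 times in their flanks, and input itself is 4.36 times its mean in cluster peaks.

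The next comparison asked how p300 at the clusters differed 2 h after LPS. The untreated reads that called the peaks also enter this contrast, so the peaks favour untreated cells by choice. Reads over the peaks of each region were compared with limma voom over 9563 regions with at least 10 p300 reads, with Benjamini-Hochberg adjustment, and SEs come from a variance that the fit shares between regions. p300 rose in 7 of 545 clusters (1.28%) and fell in 0, at an adjusted p under 0.05. Among all regions tested, 1.04% rose and 0.0105% fell. At an unadjusted p under 0.05 there were 74 clusters (13.6%), 63 of them higher after LPS. The share of all regions at that threshold was not counted, so these numbers do not set clusters apart. The median log2 fold change was 0.16 over clusters and -0.10 over all regions, a difference of 0.26 that was -0.013 without LPS replicate 2 and 0.055 without untreated replicate 1. By score class, summed reads of cluster and single peaks differed most among weak peaks in the replicate 1 pair. There the log2 ratio in class 1 was -0.065 for cluster peaks and -0.84 for single peaks, and in class 4 it was 0.36 and 0.45. Replicate 1 reads of class 4 cluster peaks numbered 15108 untreated and 18248 after LPS. The cluster of 27 peaks with high input held 4213 and 3403 over its peaks of all classes. Its part in the class 4 value was not tested. In the replicate 2 pair, class 1 had 0.29 for cluster peaks and 0.0088 for single peaks, class 2 had 0.26 and 0.11, and class 3 had 0.45 and 0.27. Class 4 of that pair had 0.27 for cluster peaks and 0.26 for single peaks.

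The cluster with the largest rise lay at chr2:30780398-30785814, with 3 peaks in 5417 bp. It held 36 and 180 p300 reads in untreated replicates 1 and 2, and 122 and 457 in LPS replicates 1 and 2. After scaling by the median of ratios these were 59.3 and 77.7 normalised reads against 213.2 and 367.4, a log2 fold change of 2.02 (SE 0.47, limma adjusted p = 0.00563). Both LPS values lay above both untreated values, and each of the 3 peaks had more p300 reads after LPS in both replicate pairs. PU.1 reads over these peaks were 171 in untreated and 283 in LPS cells, a ratio of 1.66 (exact 95% interval 1.36 to 2.01).

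At chr14:103432291-103448882, 3 peaks held 42 and 336 untreated p300 reads and 184 and 621 after LPS. Normalised reads were 69.2 and 145.1 against 321.5 and 499.2, a log2 fold change of 2.00 (SE 0.48, limma adjusted p = 0.00762). The groups did not overlap, although the untreated replicates differed from each other. Between the second and the third of these peaks the plot of reads across the cluster shows a further p300 summit in LPS cells. The LPS peak called on it reaches the edge of the third resting peak, and 1 weaker LPS p300 peak was new, in the same gap but nearer to the second. PU.1 there had 500 untreated and 549 LPS reads, a ratio of 1.10 (0.971 to 1.24), whose interval includes 1.

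At chr5:114041650-114051703 the counts were 15 and 89 untreated and 52 and 198 after LPS, a log2 fold change of 1.92 (SE 0.46, limma adjusted p = 0.00762). Most of the added reads were in the middle of its 3 peaks, which went from 3 and 34 reads to 34 and 128. At chr13:42339542-42354489 the counts were 30 and 211 untreated and 99 and 408 after LPS, a log2 fold change of 1.81 (SE 0.46, limma adjusted p = 0.0155). PU.1 over its peaks was 212 reads untreated and 362 after LPS, and nearly all of that difference was in the first peak, with 49 and 185 reads (ratio 3.78). The other two peaks had PU.1 ratios of 1.14 and 1.05, while p300 reads were higher after LPS in all 3 peaks and both replicate pairs.

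The other clusters that passed lay at chr17:43694329-43711169, chr9:51976913-51984079 and chr8:74660524-74669893, with log2 fold changes of 1.68, 1.67 and 1.65. In all 7 both LPS values lay above both untreated values. PU.1 ratios over the 7 had a median of 1.35 and were above 1 in 6 of them.

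**Figure D4:**
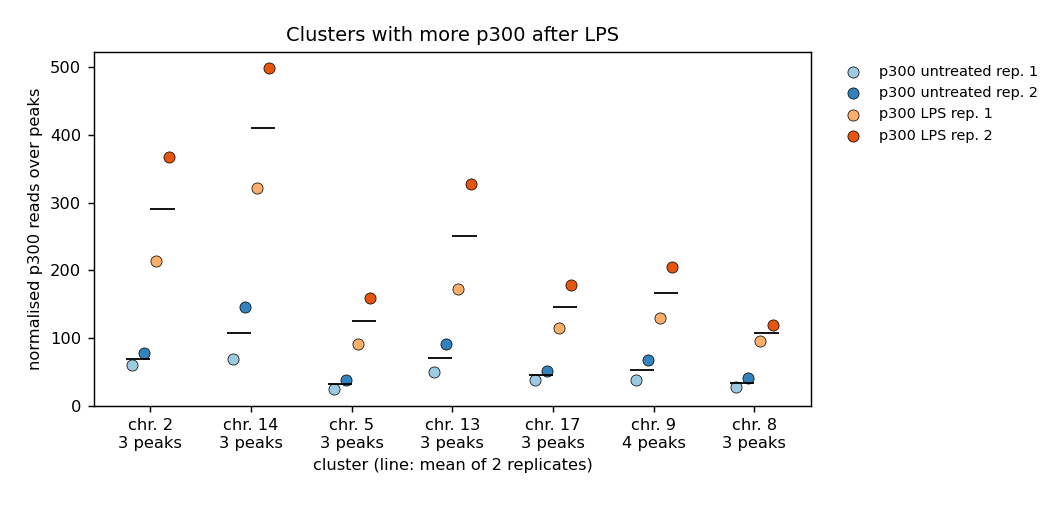
Normalised p300 reads over peaks in each of the 4 p300 libraries for the 7 clusters that rose after LPS, with a line at the mean of the 2 replicates of a condition. Both LPS points lie above both untreated points in each of the 7 clusters, and replicate 2 is above replicate 1 throughout.

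These calls were lost under other scalings and moved with single libraries. With total distinct reads, or reads in background bins of 10 kb, as library size, 0 clusters passed (smallest adjusted p 0.750 and 0.959), with 0 at an unadjusted p under 0.05 for either, although all 7 log2 fold changes stayed above 0, and the median over clusters was -0.22 and -0.23. Without LPS replicate 1 or LPS replicate 2, 0 clusters rose or fell at an adjusted p under 0.05, with 67 and 17 at an unadjusted p under 0.05. The median log2 fold change of the 7 was then 2.35 and 1.53, with median SEs of 0.68 and 0.65, and under total and background scaling it was 1.44 for both, with median SEs of 1.69 and 1.86. Without untreated replicate 1, 4 rose and 1 fell, and without untreated replicate 2, 39 rose and 9 fell.

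No cluster passed as lower in this fit. The lowest values among clusters with at least 100 p300 reads were at chr18:60871808-60889382, with 36 and 53 untreated and 10 and 12 LPS reads over peaks (log2 fold change -1.60, SE 0.51, limma adjusted p = 0.101). At chr4:136441901-136455141 the counts were 33 and 131 against 12 and 24 (log2 fold change -1.45), and at chr8:118136016-118142616 they were 23 and 135 against 17 and 18 (-1.25). Over the whole length of these 3 clusters the log2 fold changes were 0.22, -0.50 and -0.97, so the first was not lower there. PU.1 over these 3 clusters stood at 1.01, 0.803 and 0.716 of its untreated level, so PU.1 at the first was almost the same in both libraries.

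The replicate pairs shared a direction in most clusters. The log2 ratio of LPS to untreated p300 had a median of 0.25 in the replicate 1 libraries and 0.079 in the replicate 2 libraries. It was above 0 in both pairs in 257 clusters and below 0 in both in 129, and Pearson's r between the pairs was 0.593 over the 545 clusters, which share their libraries.

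Over whole clusters, sequence between the peaks included, p300 rose in 23 of 545 (4.22%) and fell in 0, against 0.899% and 0.0105% of all 9563 regions, and 6 clusters rose by both counts. Of those regions 7755 were single peaks, for which the whole region is the peak itself. The part of read number in these shares was not tested. At an unadjusted p under 0.05 there were 98 clusters. Whole clusters are mostly sequence between peaks (median 80.8% of width), and under this scaling background bins without any p300 peak had a log2 fold change of 0.36, so the part of background in these calls cannot be told apart from p300. The cluster at chr11:83452728-83477505 had 249.8 and 399.3 normalised reads untreated and 641.9 and 1235 after LPS over its whole length (log2 fold change 1.48, SE 0.22, limma adjusted p = 1.31e-08). In 21 of the 23 both LPS values lay above both untreated values. The exceptions were 2 clusters with high input, at chr7:38960623-38975947 and chr11:3028279-3099460. The latter had 7562 and 1776 normalised reads untreated and 6757 and 3510 after LPS, and its replicates differed far more than its conditions did. Its log2 fold change of 0.65 became -0.70 without untreated replicate 2. Scaling by total or background reads gave 0 higher clusters. Without LPS replicate 1 there were 10, of which 9 were among the 23, and without LPS replicate 2 there were 2, of which 1 was.

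The LPS p300 peak list gave a second view of the same regions. Of 2064 cluster peaks, 1175 overlapped an LPS p300 peak (56.9%, exact 95% interval 54.8% to 59.1%), against 2337 of 7831 single peaks (29.8%, 28.8% to 30.9%). In score class 4 the shares were 79.6% (76.9% to 82.1%) and 77.9% (75.6% to 80.1%), with overlapping intervals. In class 1 they were 24.5% and 9.50%. Peaks of pairs had shares of 48.2% over all classes and 81.1% in class 4. Every peak was called again after LPS in 109 clusters, some in 369 and none in 67. LPS cells had fewer p300 peaks than untreated cells in 432 clusters, as many in 86 and more in 27. These counts are a description, since clusters were chosen for their number of untreated peaks, and 1 LPS peak can span several resting ones. In 19 of the 432 every resting peak overlapped an LPS peak, the cluster with the largest p300 rise among them. A further 77 p300 peaks, in 60 clusters, overlapped no resting p300 peak, and 13 clusters gained at least 2 of them. Such new peaks covered 0.88% of the sequence between cluster peaks and 0.678% of the flanks of clusters. They covered 0.368% of the flanks of single peaks. Both lists hold only peaks past the caller's threshold, so a peak missing from a list is not a site without p300.

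PU.1, which these groups did not use, differed between them. The LPS to untreated PU.1 ratio over peaks had a median of 1.08 (quartiles 0.998 and 1.22) in the 109 clusters that kept every peak, 0.953 (0.860 and 1.05) in the 369 that kept some, and 0.854 (0.766 and 1.01) in the 67 that kept none. It was above 1 in 72.5%, 37.9% and 26.9% of them. Median scores of their resting peaks also differed, at 212.8, 157.2 and 90.8. In the 60 clusters with a new LPS p300 peak the median PU.1 ratio was 1.05, and in the other 485 it was 0.961. PU.1 had 1 library per condition, so none of these differences was tested.

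PU.1 over cluster peaks changed little as a whole. The ratio had a median of 0.970 (quartiles 0.861 and 1.08), and 519 of 545 clusters lay within 1.5-fold. Past 1.5-fold with an exact 95% interval that left out 1 were 9 clusters on the higher and 9 on the lower side, 1.65% each. Over all 8307 regions with a ratio these shares were 3.19% and 3.64%. Over whole clusters 5 were higher and 6 lower, where 3.20% and 3.59% of 8333 regions were. Such a call compares 2 libraries, not 2 conditions.

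The highest ratios were 2.22 (1.58 to 3.17) at chr7:75798528-75812975, with 50 untreated and 111 LPS reads, 1.95 (1.49 to 2.57) at chr1:122420719-122429559, with 84 and 164 reads, and 1.71 (1.44 to 2.03) at chr13:42339542-42354489. At the first of these every peak had more PU.1 reads after LPS, 2 and 20, 33 and 64, and 15 and 27. Its p300 counts were 7 and 46 untreated and 33 and 53 after LPS, and its log2 fold change of 1.57 did not pass (limma adjusted p = 0.0738). The lowest ratio was 0.454 (0.310 to 0.654) at chr8:74101640-74112957, with 97 and 44 reads, while its p300 log2 fold change was 0.04. At chr4:94875899-94882509 PU.1 reads were 177 and 93 (0.525) and all 3 resting p300 peaks were absent from the LPS list. At chr10:120052584-120073582 they were 249 and 148 (0.594), lower in each of its 5 peaks.

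Across clusters, p300 and PU.1 changes went together. Pearson's r between the p300 log2 fold change and the PU.1 log2 ratio over peaks was 0.596 (Spearman's rho 0.612) over 543 clusters with PU.1 reads in both libraries, and 0.650 over whole regions (545 clusters). The points share 6 libraries and their peaks, so the correlation is a description of these libraries. PU.1 ratios of peaks in the same cluster were only loosely alike. Over 1869 peaks with at least 20 PU.1 reads in 519 clusters, the intraclass correlation of the log2 ratio was 0.227, and the SD within clusters was 0.43, against 0.31 that counting alone gives. Single peaks past 1.5-fold were found in both directions in 5 clusters. At chr13:49273329-49309502 the first of 7 peaks had 14 untreated and 36 LPS PU.1 reads (ratio 2.57, exact interval 1.35 to 5.16). The next one, more than 12 kb further on, had 33 and 17 (0.515, 0.269 to 0.952), with 13 input reads. The first peak overlapped a PU.1 peak in both conditions. The next one overlapped none in either condition, so its lower count is not the loss of a called PU.1 peak. Over all 7 peaks together the cluster had 400 and 434.

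**Figure D5:**
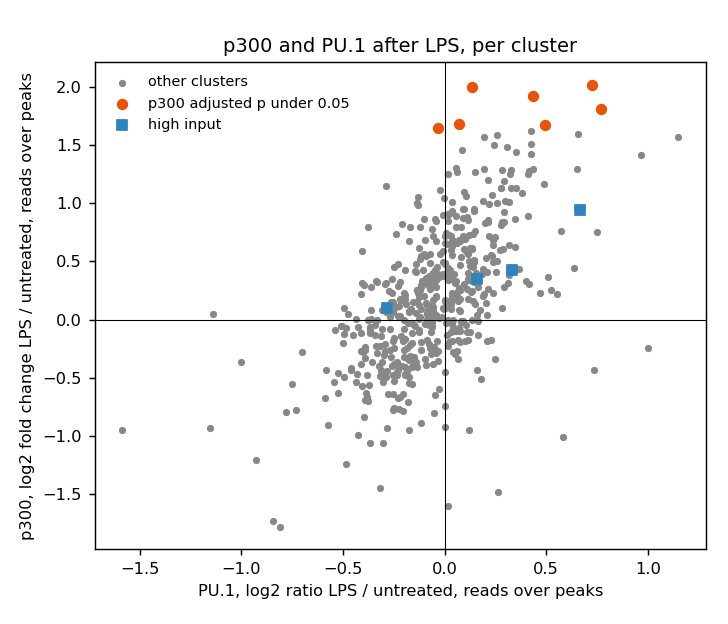
p300 log2 fold change over peaks (LPS against untreated, vertical) against the log2 PU.1 ratio over peaks (LPS against untreated, horizontal), 1 point per cluster with PU.1 reads in both libraries. Orange points are the 7 clusters whose p300 rose and blue squares the 4 clusters with high input. The points run from lower left to upper right (r = 0.596), and 6 of the 7 orange points lie to the right of a PU.1 ratio of 1.

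A small set of clusters lacked 1 or both of the other marks. The 8 clusters without a PU.1 peak on any p300 peak held 0 to 5 untreated and 0 to 6 LPS PU.1 reads over their peaks, and all but 1 of their 28 p300 peaks lacked an H3K4me1 peak as well. Their p300 counts were low, with a median of 17.5 reads over peaks in both untreated replicates, whereas all clusters had medians of 30 and 158 in replicates 1 and 2. Input was low there too, with a median of 1.12 reads per kb of peaks against 8.62 in all clusters. Relative to input, untreated p300 had median log2 ratios of 2.91 and 3.02 in replicates 1 and 2, against 0.39 and 2.83 in all clusters. With so few input reads these ratios are imprecise. These clusters rest on replicate 1 to a larger extent, and replicate 1 had more reads than replicate 2 in 3 of the 8, as in 7 of all 545. The clearest case was chr4:45053123-45075531, with 120 and 24 p300 reads in untreated replicates 1 and 2 and 117 and 21 in LPS replicates 1 and 2, 0 and 5 PU.1 reads, 4 H3K4me1 reads and 12 input reads. p300 at this cluster was high in both replicate 1 libraries and low in both replicate 2 libraries. At chr17:71856529-71875152 p300 was even between replicates (44 and 52 untreated, 63 and 47 after LPS) with 0 PU.1 reads in either condition.

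The 18 clusters without H3K4me1 on any p300 peak included 11 with PU.1. Of these, chr4:94717471-94720757 had the lowest H3K4me1 of all clusters, a log2 ratio to input of -2.33 over the whole region, with 5 H3K4me1 reads over its peaks against 29 input reads. It nevertheless held 150 untreated and 123 LPS PU.1 reads and 40 and 136 untreated p300 reads. At chr5:125869335-125874177 all 3 peaks overlapped a PU.1 and an LPS p300 peak, with 368 and 394 PU.1 reads, and none overlapped an H3K4me1 peak. At the other end, H3K4me1 was highest at chr7:74604442-74609426 (log2 ratio 3.63 over the whole region), chr4:62749855-62753130 (3.60) and chr9:58383345-58390219 (3.50). These 3 clusters had p300 log2 fold changes of -0.89, -0.50 and -0.93 after LPS, none of which passed.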

How the data were processed

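Chromatin immunoprecipitation reads and peak lists of untreated and LPS-treated mouse macrophages were used. The deposited read files list 1 aligned read per line as coordinates of 36 bp and hold no count table. The build was mm9, per the submitters' processing notes, and the aligner was not given in the sources used here. Each peak carries a score set by the authors, and p300 has 1 deposited list per condition, with both replicates merged per the series' design text. The first line of the PU.1 list deposited for untreated cells refers to LPS. In clusters, 215 PU.1 peaks unique to it held 8944 untreated and 6030 LPS reads, and 126 unique to the other list held 4002 and 5352, so both were used under their labels.

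Reads were counted here on chromosomes 1 to 19 and X, keeping 1 read per position and strand, with 5′ ends moved 100 bp downstream. Libraries held 5744811 to 7828655 reads, of which 74.2% to 97.0% were distinct. p300 was tested with limma voom (limma 3.58.1, R 4.3.3) on all stitched regions with at least 10 reads, with treatment as the single term and library sizes from the median of ratios. The prior degrees of freedom were infinite, so all regions shared 1 mean-variance trend and SEs do not measure a region's own replicate spread. The code was tested on simulated data. Ratios between single PU.1 libraries have exact 95% intervals conditional on their sum, and log2 ratios to input had 1 read added. Python 3.11.15 with numpy 2.4.6, pandas 2.3.3 and scipy 1.17.1 was used.

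Clusters named were the 10 with the most peaks and the 3 highest and 3 lowest for PU.1 ratio (at least 100 reads), p300 change (at least 100 reads) and H3K4me1 over input. Clusters called for p300, with high input, without PU.1 or without H3K4me1 were also named, chosen after their values were seen. The members and lists were chosen with earlier results of these data known. Gene names, sequences and motifs at clusters were not analysed here, because the reference tables used another build than the reads. Alternatives covered scaling, duplicates, read shift, low counts, test, replicate block, left-out replicates, stitching at 5 and 25 kb, peak score, overlap and reads added.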

Additional observations from a re-analysis of the deposited data

How the results depend on the processing

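The number of clusters was 258 with stitching at 5 kb, 874 at 25 kb, 223 with at least 4 peaks and 173 with peaks of score 100 or more. For p300 over peaks, the clusters that rose numbered 1 at 5 kb and 17 at 25 kb, those that fell 2 at 25 kb and 1 with limma-trend, and total or background library sizes gave 0 higher, medians of -0.22 and -0.23 and, for background, a median 0.38 above that of all regions. For p300 over whole regions the clusters that rose numbered 11 with limma-trend, 4 at 25 kb, 7 at 5 kb and 0 with total or background sizes, whose medians were -0.16 for both. Leaving out each p300 replicate in turn gave 0 to 39 higher and 0 to 9 lower over peaks, medians of -0.037 (without untreated replicate 1) to 0.38, and a difference from all regions of -0.013 (without LPS replicate 2) to 0.73. Over whole regions it gave 2 to 27 higher, 0 to 2 lower and medians of 0.060 (without untreated replicate 2) to 0.34. A lone library in a condition was assumed to vary like the others. Without untreated replicate 2 the sign reversed at chr4:45053123-45075531 (log2 fold change over peaks from -1.69 to 2.49 over the left-out replicates) and chr11:3028279-3099460 (over the whole region from -0.70 to 1.41). The cause was not tested.

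With the replicate block, p300 over peaks rose in 106 clusters and fell in 20, and over whole regions in 96 and 5. Deviations of same-numbered libraries from their group means had r of 0.435 over peaks and 0.421 over whole regions. Nothing in the labels ties the numbers to a shared culture or day.

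For PU.1 over peaks, keeping all reads gave 14 clusters higher and 14 lower, 5 kb gave 3 higher and 25 kb gave 15 lower. Over whole regions all reads gave 10 higher, 25 kb gave 10 and 5 kb gave 3. Total reads as library size gave median ratios of 0.932 over peaks and 0.927 over whole regions. H3K4me1 over input had a median log2 ratio of 2.28 over whole clusters, 2.17 with 10 reads added, 2.02 at 25 kb and 2.56 at 5 kb. That of PU.1 was 2.23, and 2.12, 1.86 and 2.75 with the same changes, and 2.33 with all reads kept. Covering 50% of the p300 peak lowered the shares to 66.1% for PU.1, 69.9% for H3K4me1 and 54.6% for LPS p300. With scores of at least 100 the shares were 69.3% for PU.1 and 60.5% for LPS p300. At 25 kb they were 79.8% for H3K4me1 and 52.6% for LPS p300, and at 5 kb 69.6% for PU.1 and 60.9% for LPS p300. Leaving out the 4 clusters with high input, an alternative chosen after seeing the data, moved no count by over 1.5 times. The replicate 1 p300 libraries, with few reads over peaks, limit what changes of p300 these data can show.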

Other observations

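The same rule applied to the p300 peaks of LPS-treated cells gave 559 clusters of 2095 peaks. Of the 545 resting clusters, 215 (39.4%) overlapped an LPS cluster, and of the 559 LPS clusters, 214 (38.3%) overlapped a resting one. A further 94 LPS clusters overlapped no resting p300 region of any size. Resting clusters were unevenly spread over the chromosomes. Chromosome 11 had 53 clusters with 25.3% of its resting peaks, chromosome 8 had 37 with 20.5%, chromosome 12 had 14 with 10.9% and the X chromosome had 3 with 5.05%.

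Clusters with more peaks had more H3K4me1. H3K4me1 peaks covered a median of 45.3% of the 322 clusters of 3 peaks, 52.6% of the 116 of 4 peaks and 61.0% of the 107 with more, and the log2 ratio to input had medians of 2.23, 2.28 and 2.41. PU.1 was on 75.3%, 74.6% and 70.4% of their p300 peaks. These are descriptions over regions of 1 library each, with no test.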
